A study of Rattus norvegicus with 6 samples.

Results

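The genes of the mitochondrial respiratory chain and ATP synthase were followed in cultured rat hippocampal neurons after knockdown of Ncoa3, a nuclear receptor coactivator. Members were taken by symbol (Nduf, Sdha to Sdhd, Uqcr, Cox4 to Cox8 and Atp5 genes on the platform), with the brightest probe set for each gene, which gave 100 of the 18166 genes measured. They comprised 49 genes named for complex I, 4 for complex II, 9 for complex III, 18 for complex IV and 20 for complex V. Of the 100, 17 are gene-like copies (pseudogenes or symbols that extend the name of a parent gene), and the RefSeq gene table lists 93 of the 100 as protein-coding.

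Hippocampi of rat embryos at day 18 were dissected, and all cultures were kept with 10 µM 5-fluorodeoxyuridine (FUDR), an agent that stops cell division. At 4 days in vitro they were infected with an adeno-associated virus (1800000 infectious units per ml) carrying an Ncoa3 shRNA in one group and a control shRNA in the other. Total RNA was taken at 14 days in vitro and put on single-colour Affymetrix arrays, with 3 arrays in each group, 1 from each of experiments 1, 2 and 3. The sources used here do not state the strain or the promoter of the shRNA, and each group carries 1 shRNA label, so effects of the hairpin other than on Ncoa3 cannot be told apart from the knockdown.

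Complex I takes electrons from NADH and complex II from succinate, and both pass them through ubiquinone to complex III, then through cytochrome c to complex IV, which reduces oxygen. Complexes I, III and IV pump protons across the inner membrane, and complex V, the ATP synthase, uses the returning protons to make ATP. Neurons draw most of their ATP from this chain, and most of its subunits are encoded in the nucleus. Regulators that bind near the start of many of these nuclear genes include GABP, an ETS family factor also known as NRF2, and NRF1.

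Promoters are shown for the members that passed the test for a group difference and that hold the ETS core CCGGAAG. The motif was searched on both strands, from 250 bases before to 50 after the annotated start, in RefSeq promoters of build GRCr8, which list 81 of the 100 members. It occurred in 21 of 81 (25.9%), against 12.2% of the 15972 promoters of all genes tested. Of the 16 promoters of members that passed the test, 4 held it: Ndufaf8 and Sdhb, which were higher with Ncoa3 shRNA, and Sdhd and Uqcrc2, which were lower. Each is written 5′ to 3′ on the strand of its gene, with the match in capitals (CTTCCGG is the match on the opposite strand). The regions are chr10:105879658-105879957 on the plus strand for Ndufaf8, chr5:158547684-158547983 on the plus strand for Sdhb, chr8:59850592-59850891 on the minus strand for Sdhd and chr1:184598990-184599289 on the plus strand for Uqcrc2.
Ndufaf8: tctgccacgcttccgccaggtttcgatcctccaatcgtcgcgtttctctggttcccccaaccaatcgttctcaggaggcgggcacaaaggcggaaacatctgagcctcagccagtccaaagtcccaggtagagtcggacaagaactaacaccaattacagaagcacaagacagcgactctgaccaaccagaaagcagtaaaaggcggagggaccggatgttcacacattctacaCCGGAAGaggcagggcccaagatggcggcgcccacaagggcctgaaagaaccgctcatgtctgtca
Sdhb: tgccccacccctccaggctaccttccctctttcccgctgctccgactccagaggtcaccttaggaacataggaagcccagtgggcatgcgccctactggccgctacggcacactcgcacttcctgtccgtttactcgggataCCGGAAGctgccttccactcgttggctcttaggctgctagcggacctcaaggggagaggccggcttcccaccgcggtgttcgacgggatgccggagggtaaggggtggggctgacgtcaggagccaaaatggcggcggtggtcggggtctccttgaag
Sdhd: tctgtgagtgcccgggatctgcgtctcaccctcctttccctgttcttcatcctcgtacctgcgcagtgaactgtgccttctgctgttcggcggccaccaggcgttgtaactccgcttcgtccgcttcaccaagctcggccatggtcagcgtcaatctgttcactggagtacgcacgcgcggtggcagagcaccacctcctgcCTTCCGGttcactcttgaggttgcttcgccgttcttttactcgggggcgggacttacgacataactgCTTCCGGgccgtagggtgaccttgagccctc
Uqcrc2: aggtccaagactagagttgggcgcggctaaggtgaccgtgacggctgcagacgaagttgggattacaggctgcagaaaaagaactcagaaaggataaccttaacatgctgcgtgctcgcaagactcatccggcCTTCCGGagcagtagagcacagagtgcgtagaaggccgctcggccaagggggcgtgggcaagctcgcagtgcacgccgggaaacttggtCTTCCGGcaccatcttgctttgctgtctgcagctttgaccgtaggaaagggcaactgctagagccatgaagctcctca
The Ndufaf8 and Sdhb promoters carried 1 match each, and the Sdhd and Uqcrc2 promoters 2 each. The median change was 0.14 on the log2 scale over the 21 members with it and 0.06 over the 60 without, given as a description. The NRF1 motif, GCGCA followed at once by TGCGC (its own reverse complement), occurred in 5 of 81 member promoters (6.17%), against 1.22% of those of all genes tested, and in 0 of the 16 of members that passed. Those 5 genes were Atp5me, Atp5po, Ndufa11, Ndufaf4 and Ndufaf5. A match describes these letters only and shows no binding.

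Values below are log2 signals after quantile normalization, which gives the 6 arrays one common distribution, and changes are Ncoa3 shRNA minus control shRNA. The step was taken because the deposited signals carry an offset between the groups. The array medians were 6.81, 6.82 and 6.97 with Ncoa3 shRNA, against 7.10, 7.08 and 7.25 with control shRNA, and the median difference over all genes was -0.25 as deposited and 0.01 after normalization. Arrays of one group also shared exact deposited values at 8680 to 13979 of the 36685 probe sets per pair, against 0 to 2 between groups, so the spread within a group may be smaller than that of separately processed arrays, and error between the groups' processing is not in the p-values. Ncoa3 itself had signals of 7.60, 7.60 and 7.45 with Ncoa3 shRNA, against 8.63, 8.72 and 8.22 with control shRNA. It fell by 0.97 (SE 0.142, limma adjusted p = 0.00747). Without experiment 1 or 2 its adjusted p was 0.134 or 0.123.

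All 8 neuron markers were brighter than the median gene, and their summed linear signals overlapped (48016 to 51227 with Ncoa3 shRNA, 47101 to 51314 with control shRNA). All 6 astrocyte markers measured were also brighter than the median gene, with summed signals of 5736 to 8743 with Ncoa3 shRNA and 6537 to 8811 with control shRNA. Among 7 microglia markers, all dimmer than the median gene, Aif1 and Cx3cr1 rose (28.6% called, as of all genes below the median signal). Of the 7 changes, 5 lay above 0 and 2 below. The summed signals were 564 to 669 with Ncoa3 shRNA and 527 to 563 with control shRNA. Among 6 endothelial and fibroblast markers Dcn rose (16.7% called, against 19.5% of all genes). The sums of the 6 were 2738 to 3456 with Ncoa3 shRNA and 2006 to 2582 with control shRNA. Dcn weighs most in these sums (mean deposited signal 10.78, against 6.30 to 8.20 for the others). Of the 6 changes, 4 lay above 0 and 2 below. The 7 oligodendrocyte lineage markers had 1 higher (Pdgfra) and 2 lower (Mog and Sox10). That is 42.9% called, against 19.5% of all genes and 28.6% of genes below the median signal. Of the 7 changes, 4 lay above 0 and 3 below. The sums of these 7 were 1837 to 2126 with Ncoa3 shRNA and 1886 to 2081 with control shRNA. In RNA of whole cultures, fewer cells of a type and less RNA per cell cannot be told apart. The part of these markers in the changes below was not tested.

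Of the 100 members, 12 rose and 8 fell with Ncoa3 shRNA (limma, adjusted p under 0.05 over all genes). That is 20 of 100, against 19.5% of all genes (10.5% higher and 9.04% lower), so the share called was near that of all genes. At or above the median signal, 18.75% of 80 members were called, against 10.4% of genes. With experiment as a block, 16 rose and 11 fell, against 39.3% of all genes (20.8% higher and 18.6% lower). The median change of the members was 0.07, against 0.01 over all genes. Of the members 69 lay above 0, as did 9332 of the 18166 genes. Changes of the members ran from -0.66 to 0.95. Ncoa3 shRNA was higher than control shRNA in all 3 experiments for 48 members and lower in all 3 for 21. Of the 18166 genes, 6682 were higher in all 3 and 6091 lower in all 3. The groups did not overlap for 31 members, where 40.5% of all genes did not. The direction of the counts depended on scaling: on deposited signals 5 members were higher and 18 lower (47.2% of all genes, 3.97% higher and 43.3% lower), and on arrays centred on their medians 24 were higher and 5 lower (21.5% of all genes, 12.4% higher and 9.07% lower).

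The calls also depended on single arrays. Each gene was refitted 9 times, leaving out each of the 6 arrays or each of the 3 experiments in turn. Without experiment 1, 2 or 3, 17, 20 or 2 of the 20 calls were lost. Leaving out 1 array of experiments 1 and 2 ended 13 to 15 calls, and leaving out 1 of experiment 3 ended 4 or 6. The fits without an array of experiments 1 and 2 or without either experiment are called the 6 reduced fits below. Of the members, 8 had 1 deposited value on all 3 Ncoa3 shRNA arrays and 9 on all 3 control shRNA arrays. Of the 18166 genes, 4077 and 4089 did. The 57 members not described one by one had changes between -0.64 and 0.42, of which 36 lay above 0. In the fit without the experiment block 0 of them passed limma's test (lowest adjusted p 0.0566). With that block, Ndufb7, Cox6c-ps1, Cox7b2 and Atp5mgl3 were higher and Cox7cl1 and Atp5me lower (limma adjusted p 0.0142 to 0.0397). The block fit called 39.3% of all genes.

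The background differed with signal level. Among genes at or above the median signal 10.4% were called, and among the 80 members there 15 were (18.75%, with 8 higher and 7 lower). With experiment as a block 9 of these 80 were higher and 9 lower. Of the 9083 genes at that level, 1293 were higher and 1118 lower in the block fit. Among dimmer genes 28.6% were called, and among the 20 members there 5 were (4 higher, 1 lower). Without the copies, 7 of 83 members were higher and 6 lower, with a median change of 0.06.

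**Figure D1:**
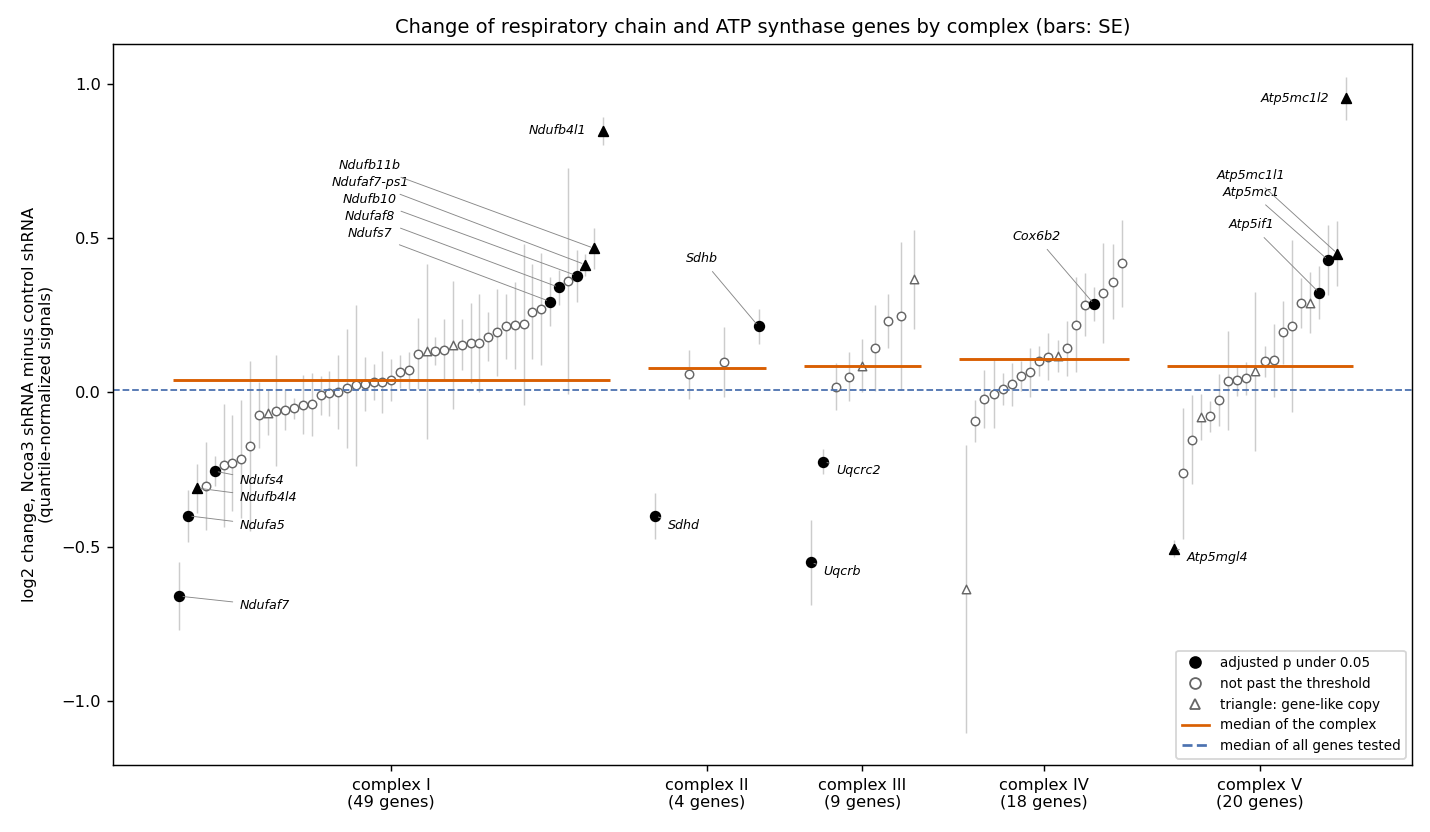
Log2 change (Ncoa3 shRNA minus control shRNA, quantile-normalized) of each of the 100 members, ordered within its complex, with bars for the SE; filled symbols passed the test, triangles are gene-like copies, orange lines are the medians of the complexes and the dashed line that of all genes tested. The medians of the 5 complexes lie between 0.04 and 0.11, and called members stand on both sides of 0 in complexes I, II and V.

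By complex, the median change was 0.04 for complex I, 0.08 for complex II, 0.09 for complex III, 0.11 for complex IV and 0.08 for complex V. Each complex had members above and below 0. On deposited signals, with the offset included, the medians were -0.13, -0.09, -0.06, -0.05 and -0.05 in the same order, against -0.25 over all genes. On centred arrays the medians of the complexes were 0.15, 0.18, 0.21, 0.23 and 0.23. The centred median was 0.03 over all genes and 0.05 over genes at or above the median signal. No scaling put complex IV or V below complex I, and the size and sign of the medians followed the scaling.

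Complex II, succinate dehydrogenase, is the member of the chain that also serves the citric acid cycle, and its 4 subunits are all measured here. The iron-sulfur subunit Sdhb (probe set 17803776) had signals of 11.33, 11.37 and 11.23 with Ncoa3 shRNA, against 11.05, 11.13 and 11.11 with control shRNA. The groups did not overlap, and Sdhb rose by 0.21 (SE 0.0566, 1.16-fold, limma adjusted p = 0.0466). On deposited signals its change was 0.03 (adjusted p = 0.753), and the call was lost in the 6 reduced fits and without the control array of experiment 3 (adjusted p up to 0.419).

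Sdhd (probe set 17852281), a membrane anchor that helps form the ubiquinone site, had 10.27, 10.29 and 10.10 with Ncoa3 shRNA, against 10.68, 10.64 and 10.55 with control shRNA. Every array with Ncoa3 shRNA was below every control, and Sdhd fell by 0.40 (SE 0.0742, 1.32-fold, limma adjusted p = 0.0157). It passed on deposited signals (-0.62) and on centred arrays (-0.35) as well, while the call was lost without either array of experiment 1, without the control array of experiment 2, and without experiment 1 or 2 (adjusted p up to 0.211).

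The flavoprotein Sdha, which oxidises succinate, had 10.54, 10.54 and 10.33 with Ncoa3 shRNA, against 10.48, 10.47 and 10.16 with control shRNA. The groups overlapped, with a change of 0.10 (limma adjusted p = 0.595). Sdhc, the other membrane anchor, had 12.31, 12.27 and 12.12 with Ncoa3 shRNA, against 12.30, 12.14 and 12.08 with control shRNA, a change of 0.06 (limma adjusted p = 0.653). Both were lowest in experiment 3 in each group. Succinate dehydrogenase thus had 1 subunit higher, 1 lower and 2 that did not pass. Sdhaf2, which helps attach flavin to Sdha, also fell (0.33 on the log2 scale, limma adjusted p = 0.0104).

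Complex III passes electrons from ubiquinol to cytochrome c. Uqcrb (probe set 17836709), a small subunit near a ubiquinone site, had 8.93, 8.68 and 8.65 with Ncoa3 shRNA, against 9.37, 9.49 and 9.05 with control shRNA. It fell by 0.55 (SE 0.139, 1.47-fold, limma adjusted p = 0.0403), with no overlap between groups. The call was lost in the 6 reduced fits and without the Ncoa3 shRNA array of experiment 3 (adjusted p up to 0.337).

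Uqcrc2 (probe set 17620150), a core protein of the matrix side, had 11.68, 11.67 and 11.75 with Ncoa3 shRNA, against 11.92, 11.92 and 11.94 with control shRNA. It fell by 0.22 (SE 0.0403, limma adjusted p = 0.0144). Its deposited value was the same on all 3 control arrays, and on centred arrays its change was -0.10 with an adjusted p of 0.227. The 6 reduced fits also lost the call (adjusted p up to 0.248).

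The partner core protein Uqcrc1 had 11.50, 11.54 and 11.30 with Ncoa3 shRNA, against 11.49, 11.44 and 11.35 with control shRNA, a change of 0.02 (limma adjusted p = 0.893). The Rieske iron-sulfur protein Uqcrfs1 had 9.21, 9.18 and 8.57 with Ncoa3 shRNA, against 8.88, 8.99 and 8.34 with control shRNA. Its experiments differed more than its groups did, and its change of 0.25 had a limma adjusted p of 0.526, or 0.0257 with experiment as a block.

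The small subunit Uqcrq had 12.70, 12.76 and 12.66 with Ncoa3 shRNA, against 12.62, 12.29 and 12.52 with control shRNA. The groups did not overlap, yet the change of 0.23 did not pass (limma adjusted p = 0.118). Uqcrh, the hinge protein that holds cytochrome c1, had 12.69, 12.62 and 12.58 with Ncoa3 shRNA, against 12.72, 12.16 and 12.56 with control shRNA. The control of experiment 2 was the low array, and the change of 0.14 did not pass (limma adjusted p = 0.524).

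Uqcr11, a small subunit, had 12.53, 12.52 and 12.55 with Ncoa3 shRNA, against 12.56, 12.30 and 12.59 with control shRNA, a change of 0.05 (limma adjusted p = 0.701). The copy Uqcr10-ps1 had 8.61, 8.65 and 8.17 with Ncoa3 shRNA, against 8.21, 8.23 and 7.89 with control shRNA. It was higher with Ncoa3 shRNA within each experiment, and its change of 0.37 had an adjusted p of 0.172 in limma, or 0.0104 with experiment as a block. The copy Uqcr11l1 had 6.25, 6.51 and 6.48 with Ncoa3 shRNA, against 6.36, 6.37 and 6.25 with control shRNA, a change of 0.09 (limma adjusted p = 0.536). Complex III had 0 members higher and 2 lower of 9, where 10.5% of all genes were higher and 9.04% lower. The heme protein Cyc1, which is no member by symbol, changed by 0.10 (limma adjusted p = 0.215).

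**Figure D2:**
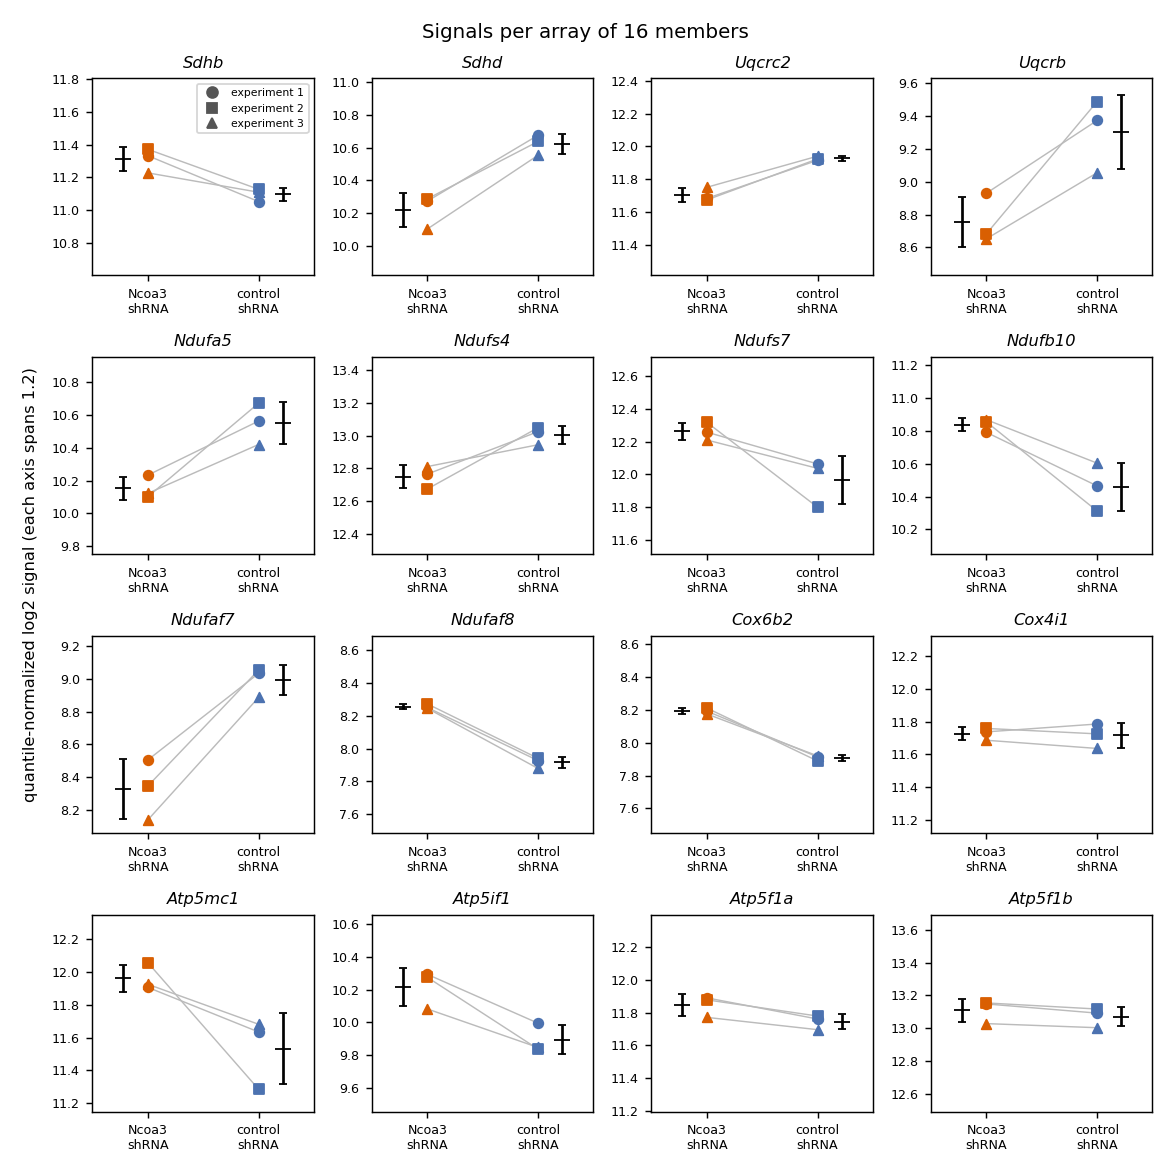
Log2 signals (quantile-normalized) on each array of members the results turn on, with Ncoa3 shRNA at the left and control shRNA at the right of each panel; symbols mark experiments 1, 2 and 3, grey lines join the arrays of one experiment, black bars are the mean ± SD of a group (n = 3), and every panel spans the same range on its log2 axis. Sdhd sits at 10.10 to 10.29 with Ncoa3 shRNA and at 10.55 to 10.68 with control shRNA, while Cox4i1 overlaps.

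Complex I had 6 members higher and 4 lower of 49, with 3 and 3 of 42 once copies were left out. With the copies 20.4% were called, against 19.5% of all genes. Among the subunits that carry its redox centres, Ndufs7 (probe set 17833751), which holds the iron-sulfur cluster next to ubiquinone, had 12.26, 12.32 and 12.21 with Ncoa3 shRNA, against 12.06, 11.80 and 12.04 with control shRNA. It rose by 0.29 (SE 0.0788, limma adjusted p = 0.0480). The call was lost with experiment as a block (adjusted p = 0.0691), on deposited signals (0.190) and in all 9 refits (up to 0.223).

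Ndufv1, which binds NADH and flavin, had 11.52, 11.55 and 11.37 with Ncoa3 shRNA, against 11.44, 11.43 and 11.36 with control shRNA, a change of 0.07 (limma adjusted p = 0.471). The iron-sulfur subunit Ndufs8 had 10.52, 10.67 and 10.35 with Ncoa3 shRNA, against 10.45, 10.27 and 10.39 with control shRNA, a change of 0.14 (limma adjusted p = 0.380). Both overlapped between groups. Ndufs1, the largest iron-sulfur subunit, had 10.10, 10.03 and 9.77 with Ncoa3 shRNA, against 10.24, 10.51 and 9.80 with control shRNA. The groups overlapped (change -0.21, limma adjusted p = 0.491). Of the 6 core subunits measured, Ndufs7 was the 1 that passed.

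Accessory subunits, which surround the core, moved both ways. Ndufa5 (probe set 17790047), in the peripheral arm, had 10.23, 10.10 and 10.12 with Ncoa3 shRNA, against 10.56, 10.67 and 10.42 with control shRNA. It fell by 0.40 (SE 0.0835, 1.32-fold, limma adjusted p = 0.0230). Ndufs4 (probe set 17745318), which stabilises the NADH-binding end and whose loss causes Leigh syndrome in humans, had 12.77, 12.67 and 12.81 with Ncoa3 shRNA, against 13.02, 13.05 and 12.94 with control shRNA. It fell by 0.26 (SE 0.0479, limma adjusted p = 0.0164), and on centred arrays its change was -0.05 (adjusted p = 0.542). Its deposited value was the same on all 3 control arrays.

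Ndufb10 (probe set 17654574), of the membrane arm, had 10.79, 10.86 and 10.87 with Ncoa3 shRNA, against 10.46, 10.31 and 10.60 with control shRNA. It rose by 0.38 (SE 0.0846, 1.30-fold, limma adjusted p = 0.0280), with a change of 0.17 on deposited signals (adjusted p = 0.0656). The calls of Ndufa5, Ndufs4 and Ndufb10 were lost in the 6 reduced fits (adjusted p up to 0.249, 0.210 and 0.244), and those of Ndufa5 and Ndufb10 also without the Ncoa3 shRNA array of experiment 3.

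Assembly factors are not part of the finished complex. Ndufaf7 (probe set 17813540), a methyltransferase of the matrix, had 8.51, 8.35 and 8.14 with Ncoa3 shRNA, against 9.03, 9.05 and 8.89 with control shRNA. It fell by 0.66 (SE 0.111, 1.58-fold, limma adjusted p = 0.0114), the most negative change among the 100 members. The call held on deposited and on centred signals and was lost without the control array of experiment 1 or 2 and without either experiment (adjusted p up to 0.185). Ndufaf8 (probe set 17653255), the partner of the assembly factor Ndufaf5, had 8.25, 8.27 and 8.25 with Ncoa3 shRNA, against 7.93, 7.94 and 7.88 with control shRNA. It rose by 0.34 (SE 0.0562, 1.27-fold, limma adjusted p = 0.0109), and its deposited value was the same on all 3 control arrays. The 6 reduced fits lost the call (adjusted p up to 0.276).

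The 8 Ndufaf members had a median change of -0.12, with 1 higher and 1 lower (25.0% called, against 19.5% of all genes). Ndufaf6 had 8.06, 8.07 and 7.70 with Ncoa3 shRNA, against 8.29, 8.32 and 7.91 with control shRNA. Within each experiment it was lower with Ncoa3 shRNA, its change of -0.23 having an adjusted p of 0.361 in limma, or 0.0107 with experiment as a block. Of 29 further assembly factors of the chain, 0 were higher and 2 lower (6.90% called, against 19.5% of all genes). They were Sdhaf2 and Tmem186, a factor of complex I (a fall of 0.40 on the log2 scale, limma adjusted p = 0.00692). Of the 29, 27 were at or above the median signal, where 10.4% of genes were called. The deposited value of Tmem186 was the same on all 3 control arrays. The median change of the 29 was -0.05, or -0.01 on centred arrays.

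Complex IV, cytochrome c oxidase, had 1 of 18 members past the test, where 19.5% of all genes passed. With experiment as a block 3 of the 18 were higher and 1 lower (39.3% of all genes called). On centred arrays 4 were higher and 0 lower (21.5%), and on deposited signals 0 were higher and 3 lower (47.2%). Cox6b2 (probe set 17613074), the testis-type isoform of a small subunit, had 8.19, 8.21 and 8.18 with Ncoa3 shRNA, against 7.91, 7.89 and 7.92 with control shRNA. It rose by 0.29 (SE 0.0547, 1.22-fold, limma adjusted p = 0.0174). On deposited signals the change was 0.01 (adjusted p = 0.772), and its deposited value was the same on all 3 Ncoa3 shRNA arrays. The 6 reduced fits lost the call (adjusted p up to 0.344).

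Cox4i1, the common form of the regulatory subunit that binds ATP, had 11.74, 11.76 and 11.69 with Ncoa3 shRNA, against 11.79, 11.72 and 11.64 with control shRNA. The groups overlapped (change 0.01, limma adjusted p = 0.904). Cox4i2, the isoform known from lung and low oxygen, had 7.16, 7.26 and 7.23 with Ncoa3 shRNA, against 6.73, 6.72 and 7.13 with control shRNA. The groups did not overlap, but the control of experiment 3 was close to the Ncoa3 shRNA arrays, and the change of 0.36 did not pass (limma adjusted p = 0.0935).

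Other subunits of complex IV come as isoforms that replace each other between tissues. Cox6a1 had 13.23, 13.35 and 13.20 with Ncoa3 shRNA, against 13.30, 13.06 and 13.06 with control shRNA, a change of 0.12 (limma adjusted p = 0.348). The muscle form Cox6a2 had 8.49, 8.22 and 7.97 with Ncoa3 shRNA, against 8.19, 7.87 and 7.96 with control shRNA, a change of 0.22 (limma adjusted p = 0.372). Neither form separated the groups.

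Cox8a had 13.11, 13.16 and 13.06 with Ncoa3 shRNA, against 13.14, 12.99 and 13.04 with control shRNA, a change of 0.05 (limma adjusted p = 0.484). The muscle form Cox8b had 6.71, 6.71 and 6.56 with Ncoa3 shRNA, against 6.71, 6.62 and 6.56 with control shRNA, a change of 0.03 (limma adjusted p = 0.832). On deposited signals the change of Cox8b was -0.26 (limma adjusted p = 0.00259), near the median of -0.25 over all genes. Its deposited value was the same on all 3 Ncoa3 shRNA arrays. On centred arrays the change of Cox8b was 0.02 (limma adjusted p = 0.894).

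Ndufa4, named for complex I and now placed in complex IV, had 12.76, 12.70 and 12.68 with Ncoa3 shRNA, against 12.75, 12.58 and 12.60 with control shRNA, a change of 0.07 (limma adjusted p = 0.443). The mitochondrial subunits COX1, COX2 and COX3 of complex IV, which are not members, changed by -0.05, 0.04 and 0.04, and 0 of these 3 passed limma's test.

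Complex V had 4 members higher and 1 lower of 20, or 2 and 0 of 14 without copies, where 10.5% of all genes were higher and 9.04% lower. Atp5mc1 (probe set 17660414) encodes the subunit of the rotating c-ring. It had 11.91, 12.06 and 11.93 with Ncoa3 shRNA, against 11.63, 11.29 and 11.68 with control shRNA, a rise of 0.43 (SE 0.113, 1.35-fold, limma adjusted p = 0.0466). The call was lost with experiment as a block (adjusted p = 0.0751), on deposited signals (0.125) and in every refit (up to 0.210) but the one without the control array of experiment 3.

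Atp5if1 (probe set 17802838), the inhibitory factor that stops the synthase from running backwards, had 10.29, 10.28 and 10.08 with Ncoa3 shRNA, against 9.99, 9.84 and 9.85 with control shRNA. It rose by 0.32 (SE 0.0856, 1.25-fold, limma adjusted p = 0.0468), with a deposited change of 0.08 (adjusted p = 0.626). The call was lost in the 6 reduced fits and without the control array of experiment 3 (adjusted p up to 0.380).

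Of the catalytic head, Atp5f1a had 11.89, 11.88 and 11.77 with Ncoa3 shRNA, against 11.76, 11.78 and 11.70 with control shRNA, a change of 0.10 (limma adjusted p = 0.221). Atp5f1b had 13.15, 13.15 and 13.03 with Ncoa3 shRNA, against 13.09, 13.12 and 13.00 with control shRNA, a change of 0.04 (limma adjusted p = 0.631). In each experiment both head subunits were slightly higher with Ncoa3 shRNA, and neither passed. On centred arrays Atp5f1a and Atp5f1b changed by 0.23 each and passed (adjusted p = 0.0194 and 0.0101), as did Cox6a1 (0.33, adjusted p = 0.0245), Ndufa4 (0.24, adjusted p = 0.0294) and Uqcrq (0.40, adjusted p = 0.0334). Of the 9083 genes at or above the median signal, 969 were higher and 377 lower on centred arrays. Of the 8 neuron markers, 2 were higher there and 0 lower.

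Of the 17 copies, 5 were higher and 2 lower, where 19.5% of all genes and 28.6% of genes below the median signal were called. Probes for a copy can catch RNA of the parent gene, so these values are uncertain as measures of the copy. Atp5mc1l2 (probe set 17815747) had 6.69, 6.88 and 6.72 with Ncoa3 shRNA, against 5.76, 5.78 and 5.89 with control shRNA, a rise of 0.95 (limma adjusted p = 9.36e-04). Ndufb4l1 had 5.25, 5.30 and 5.20 with Ncoa3 shRNA, against 4.36, 4.38 and 4.45 with control shRNA, a rise of 0.85 (limma adjusted p = 5.26e-04). Both had signals below those of the median gene, and without experiment 2 the calls of Atp5mc1l2 and Ndufb4l1 were lost (adjusted p 0.0557 and 0.0502).

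Atp5mc1l1 rose by 0.45, with 9.35, 9.46 and 9.53 with Ncoa3 shRNA, against 9.04, 8.81 and 9.14 with control shRNA (limma adjusted p = 0.0320), but its deposited change did not pass (adjusted p = 0.122). Its call was lost in the 6 reduced fits and without the Ncoa3 shRNA array of experiment 3 (adjusted p up to 0.269). The parent Atp5mc1 and both of its copies rose on quantile-normalized signals. Another Atp5mc member, Atp5mc3, changed by -0.02 (limma adjusted p = 0.879).

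In some other pairs only the copy passed, or copy and parent passed in opposite directions. Ndufaf7-ps1 had 4.73, 4.73 and 4.67 with Ncoa3 shRNA, against 4.29, 4.32 and 4.27 with control shRNA, and rose by 0.41 (limma adjusted p = 0.00149) where Ndufaf7 fell. Ndufb11b had 6.76, 6.79 and 6.63 with Ncoa3 shRNA, against 6.31, 6.30 and 6.18 with control shRNA, and rose by 0.47 (limma adjusted p = 0.00681). Its parent Ndufb11 changed by -0.05 (limma adjusted p = 0.363), and Ndufb4, the parent of Ndufb4l1, by 0.01 (limma adjusted p = 0.972). Without experiment 1 or 2 the calls of Ndufb11b and Ndufaf7-ps1 were lost (adjusted p up to 0.158 and 0.0711).

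The 2 copies that fell were Ndufb4l4 and Atp5mgl4. Ndufb4l4 had 8.03, 8.02 and 8.24 with Ncoa3 shRNA, against 8.40, 8.41 and 8.41 with control shRNA, and fell by 0.31 (limma adjusted p = 0.0428). On centred arrays it did not pass (adjusted p = 0.0714), nor did it in the 6 reduced fits or without the control array of experiment 3 (up to 0.415). Atp5mgl4 had 3.76, 3.76 and 3.76 with Ncoa3 shRNA, against 4.26, 4.29 and 4.24 with control shRNA, and fell by 0.51 (limma adjusted p = 5.43e-04), with an adjusted p of 0.0502 without experiment 2. Within each group Atp5mgl4 and Ndufaf7-ps1 had 1 deposited value on all 3 arrays. Ndufb4l4 had 1 deposited value on all 3 control shRNA arrays.

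**Figure D3:**
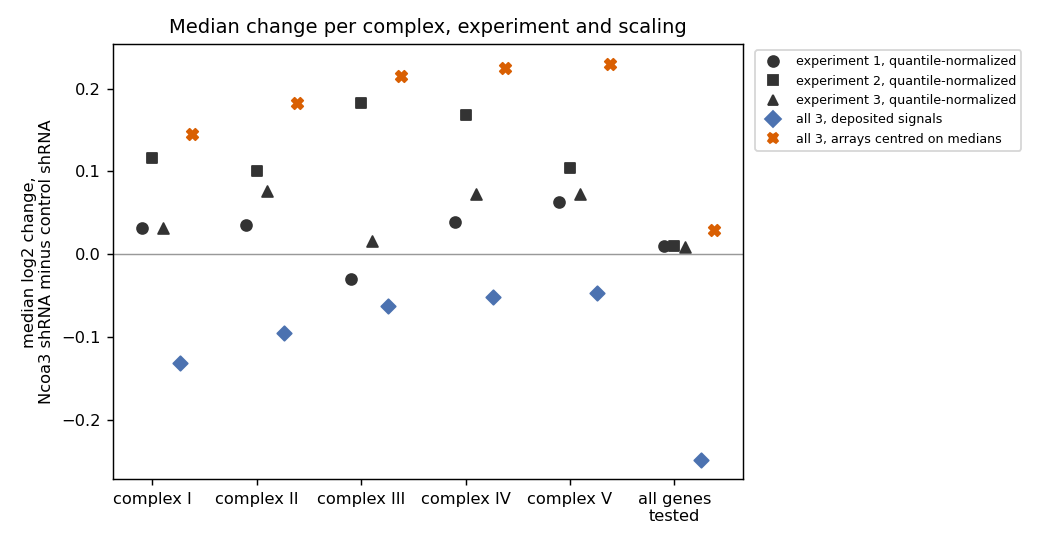
Median log2 change (Ncoa3 shRNA minus control shRNA, quantile-normalized) within experiments 1, 2 and 3 (black), and over all 3 experiments on deposited signals (blue) and on centred arrays (orange), for each complex and for all genes tested. Complex III lies at -0.03, 0.18 and 0.02 in experiments 1, 2 and 3, and all 5 complexes are below 0 on deposited signals and above 0 on centred arrays.

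Within experiments, the median change of the members was 0.03 in experiment 1, 0.13 in experiment 2 and 0.04 in experiment 3, with an SD over experiments of 0.0548. Complex IV had 0.04, 0.17 and 0.07 in this order, complex V 0.06, 0.10 and 0.07, and complex I 0.03, 0.12 and 0.03. Complex III had -0.03, 0.18 and 0.02, and complex II 0.04, 0.10 and 0.08. The highest value of each of the 5 complexes was that of experiment 2, and leaving out that experiment left 0 of 18166 genes called (3071 at an unadjusted p under 0.05, 15 of them members).

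The experiments also differed from each other within both groups. By limma's moderated F test of the experiment term, 18 of the 100 members passed, against 18.8% of all genes, so the share was near the background. Of the 18, 16 were lower in experiment 3 than the mean of experiments 1 and 2 (14.8% of all genes) and 2 were higher (4.01%). The median difference of experiment 3 from that mean was -0.12 over members and -0.08 over all genes. Leaving out any one of the 4 arrays of experiments 1 and 2 gave 0 genes past the test, with 4355 to 6092 at an unadjusted p under 0.05. Without the control or the Ncoa3 shRNA array of experiment 3, 1294 or 1368 genes passed.

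The smallest p-values belonged to a copy, an assembly factor and the Rieske protein. Atp5hl1 had 7.33, 7.31 and 7.98 with Ncoa3 shRNA, against 7.17, 7.33 and 7.91 with control shRNA in experiments 1, 2 and 3. In both groups experiment 3 was high, by 0.66 (limma F test, adjusted p = 0.0352). Ndufaf6 was low in experiment 3 by 0.38 (limma F test, adjusted p = 0.0368), as its values above show. Uqcrfs1 was low there by 0.61 (limma F test, adjusted p = 0.0369). All 8 Ndufaf members were lower in experiment 3, as were 12297 of the 18166 genes. The median difference of the 8 was -0.34, and 4 of them passed, against 18.8% of all genes. By complex, the median difference was -0.21 for complex I (10 members passed), -0.15 for complex II (0), -0.01 for complex III (2), -0.09 for complex IV (2) and -0.11 for complex V (4).

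**Figure D4:**
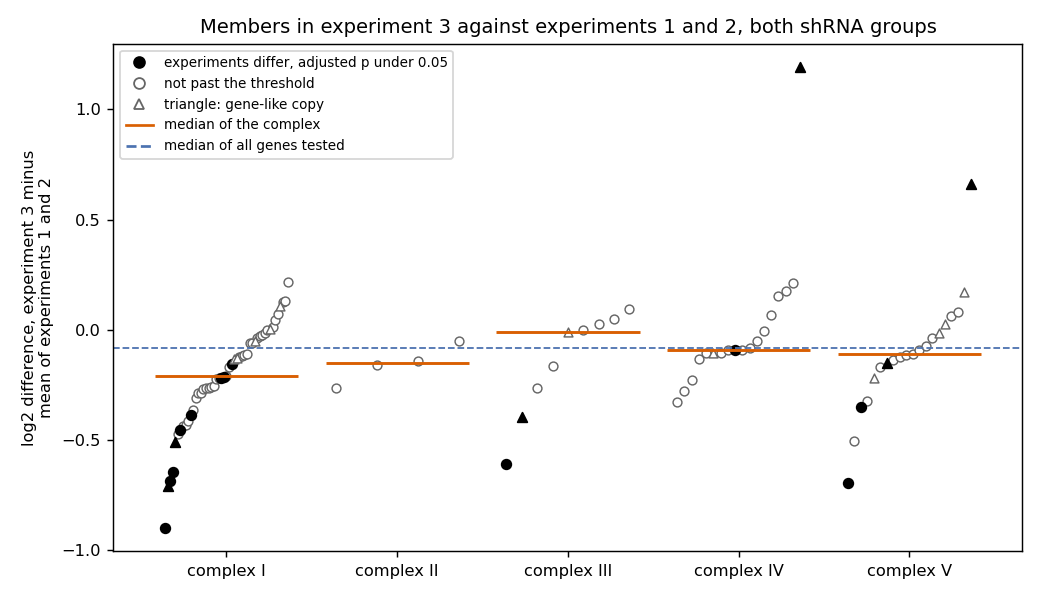
Log2 difference of experiment 3 from the mean of experiments 1 and 2 (both shRNA groups, quantile-normalized) for each member by complex; filled symbols passed limma's F test of the experiment term, triangles are gene-like copies, orange lines are the medians of the complexes and the dashed line that of all genes tested. The median over members is -0.12, and 79 of the 100 members lie below 0, as do 12297 of the 18166 genes tested.

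All 6 astrocyte markers passed the same F test, with a median difference of 0.42 in experiment 3. Of the 8 neuron markers 0 passed, and of all genes 18.8% (4.01% higher in experiment 3 and 14.8% lower). Of the 29 further assembly factors 9 passed, all of them lower in experiment 3. The median difference of the 29 was -0.29, against -0.08 over all genes. The part of the astrocyte markers in the lower member signals of experiment 3 was not tested.

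Among 18 regulators of respiratory genes, 1 was higher and 1 lower, where 19.5% of all genes passed. Of the 18, 15 were at or above the median signal, where 10.4% of genes passed. Gabpa, the DNA-binding subunit of GABP, had 7.28, 7.28 and 7.14 with Ncoa3 shRNA, against 7.60, 7.70 and 7.48 with control shRNA, with 1 deposited value on all 3 Ncoa3 shRNA arrays. It fell by 0.36 (SE 0.0808, limma adjusted p = 0.0287). Esrrg, an orphan nuclear receptor, rose by 0.58 (SE 0.0574, limma adjusted p = 0.00215). It also had 1 deposited value on all 3 Ncoa3 shRNA arrays. The coactivator Ppargc1a changed by -0.18 (limma adjusted p = 0.337, or 0.0388 with experiment as a block), Nrf1 by -0.09 (limma adjusted p = 0.583), Esrra by 0.00 (limma adjusted p = 0.993) and the mitochondrial DNA-binding factor Tfam by -0.08 (limma adjusted p = 0.765).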

How the data were processed

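Each array of rat hippocampal neurons gave log2 signals per probe set. Per the submitters' processing notes, the deposited log2 values came from Affymetrix Expression Console. Version, summarisation, normalization and build: not given in the sources used here. Of 36685 probe sets, 18511 had 1 symbol in the platform annotation, which can be old, 575 several and 17599 none, and genes on probe sets with several symbols were not analysed here (8 probe sets name members; Cox7a1 and Cox7a2 were not analysed here). The brightest probe set of a gene was used.

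Because of the group offset, all 6 arrays were quantile-normalized over all probe sets. Genes were fitted with lmFit and trended eBayes (limma 3.58.1, R 4.3.3), two-sided, with Benjamini-Hochberg adjustment over 18166 genes and a threshold of 0.05. No low-signal filter was set in this fit. The number of arrays, 3 per group, limits the precision. By the labels, equal numbers come from one experiment, and deviations from the group means correlated within experiments 1, 2 and 3 at r = 0.72, 0.55 and 0.78 over genes (between experiments -0.73 to 0.50), so a fit with experiment as a block was made as an alternative. Others used the deposited signals, median-centred arrays, no trend, bright genes, the mean of probe sets, and each array or experiment left out.

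Members and lists were chosen with earlier results of these data known. Values per array are given for all Sdh and Uqcr members, for up to 4 called members with the largest change in each direction in each of the Nduf, Cox and Atp5 sets, for the 3 with the smallest p of the experiment F test and for members set by role (Ndufs1, Ndufv1, Ndufs7, Ndufs8, Ndufa4, the Cox4, Cox6a and Cox8 isoforms, Atp5f1a and Atp5f1b). Outside this rule, Ndufaf8, as the remaining member that passed, and Ndufb4 and Ndufb11, as parents of copies, were named after their values were seen. So were Atp5mc3 and, among the 57 members not described one by one, those named for passing with experiment as a block. Promoters came from RefSeq (GRCr8) through gene IDs.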

Additional observations from a re-analysis of the deposited data

How the results depend on the processing

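On deposited signals 5 members were higher and 18 lower, with a median change of -0.078, where 8579 of the 18166 genes were called. With experiment as a block on deposited signals 5 were higher and 31 lower, again with a median of -0.078. That block fit called 10932 of the 18166 genes. On centred arrays 24 were higher and 5 lower, with a median of 0.20, where 3900 of all genes were called. Testing the genes at or above the median signal gave 2 and 4, with fewer genes tested (433 of 9083 called). Leaving out copies gave 7 higher. On quantile-normalized signals the experiment block gave 16 members higher and 11 lower, and 7147 of all genes against 3548 without it; Ndufs7 and Atp5mc1 lost the call, and 9 members gained one. Leaving out an array or experiment gave 0 to 17 higher and 0 to 14 lower, where 0 to 8354 of all genes were called. The lowest counts came without experiment 2 and the highest without experiment 3 (17 and 14); without experiment 1 they were 2 and 1. Ncoa3 changed by -1.15 to -0.86 in those fits. Between experiments, 3 members passed on deposited signals, 9 on centred arrays, 10 without a trend and 0 to 6 with an array left out. Of all genes, 347, 2440, 1473 and 0 to 1368 passed in the same order. Cox8b reversed to -0.26 on deposited signals, with and without the block, and with the block there Cox4i1 was at -0.14 and Atp5hl1 at -0.22. The median deposited difference over all genes was -0.25. Of the 20 called members, 7 lost the call on deposited signals, 3 on centred arrays, 3 without a trend, 9 among bright genes and 0 with the mean of probe sets. The cause was not tested.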

Other observations

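Energy pathways around the chain were measured on the same arrays, where 19.5% of all genes were called (10.5% higher and 9.04% lower). Among genes at or above the median signal 10.4% were called. All 15 citric acid cycle and pyruvate dehydrogenase genes, all 11 glycolysis genes and 12 of the 14 carriers and porins lay there. Of 15 genes of the citric acid cycle and pyruvate dehydrogenase, 0 were higher and 1 was lower: Sucla2, a subunit of succinyl-CoA ligase, fell by 0.40 (SE 0.0626, limma adjusted p = 0.00907). The median change of that list was -0.14, against 0.01 over all genes, but on centred arrays it was -0.003, against 0.03 over all genes, with 2 genes higher and 1 lower. With experiment as a block 6 of its genes were lower and 0 higher, where 18.6% of all genes were lower and 20.8% higher. Of 11 glycolysis genes 0 passed limma's test in either direction, with a median change of 0.04, or 0.19 on centred arrays. Of 14 carriers and porins 0 were higher and 1 was lower. Slc25a4, the ADP/ATP carrier of heart and brain, had 11.90, 11.89 and 11.90 with Ncoa3 shRNA, against 12.49, 12.36 and 12.46 with control shRNA, and fell by 0.54 (SE 0.0450, limma adjusted p = 0.00136). Cytochrome c, Cycs, changed by -0.08 (limma adjusted p = 0.174).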
